A study of Saccharomyces cerevisiae with 17 samples.

Results

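H3K4me2 peaks that hold no start codon are the minority of a mark that otherwise sits over gene starts. They were taken from the peak list of wild-type Cps25 cells as the listed intervals that contain the first base of no nuclear protein-coding ORF, and 400 of the 4393 listed H3K4me2 peaks met this rule (9.11%, exact 95% interval 8.27 to 9.99). The remaining 3993 peaks of the list held at least 1 start codon. No peak height or second mark entered the rule, but the called edges of a peak decide whether it holds a start codon. The share was 4.36% among peaks over 400 bp wide and 1.27% in the upper 50% of the list by score.

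The study used ChIP-seq, the sequencing of DNA bound by immunoprecipitated chromatin, to profile methylation of lysine 4 of histone H3 in Saccharomyces cerevisiae BY4741A, a laboratory strain of budding yeast that was grown exponentially in rich medium (YPD) and fixed with formaldehyde. Its 17 libraries cover wild-type Cps25, Cps25 carrying A142D, a CPS25 deletion and a SET1 deletion, each with an antibody against H3K4me2 and another against H3K4me3 in 2 replicates, and 1 input of BY4741A. Peak lists of 4 libraries, all replicate 1, were analysed: H3K4me2 and H3K4me3 of cps25_WT cells, and H3K4me2 and H3K4me3 of set1delta cells, which lack the methyltransferase. No values of the other 13 libraries entered. Each group is thus a single list without a measure of replicate error, and differences are described for these lists and not tested. Read depth is unknown. Scores are the authors' own and their scale is unstated, so only a score percentile, the rank of a peak within its own list, is used. Intervals after a share are exact Clopper-Pearson intervals at 95% over peaks or genes and cover counting error only. SET1 (YHR119W) had a peak over its start codon in both wild-type lists and in neither set1delta list, where the gene itself is deleted.

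In this yeast all methylation of H3 lysine 4 is made by COMPASS, whose catalytic subunit is Set1 and which travels with RNA polymerase II early in transcription. H3K4me3 marks the first nucleosomes of transcribed genes and H3K4me2 the nucleosomes next to them, so a mark away from an annotated start can accompany transcription that begins elsewhere, such as antisense or intergenic RNA. H3K4me2 is bound by the Set3 deacetylase complex, which is known to act at genes overlapped by non-coding transcription.

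The 400 peaks lay in 4 kinds of place. Inside a single ORF lay 192 (48.0%, 43.0 to 53.0), a share of 28.2% when only genes with a standard name count, both as starts and as ORFs. Another 86 ran across the end of an ORF, that is over a stop codon (21.5%, 17.6 to 25.9). Between tandem or divergent ORFs lay 118 (29.5%, 25.1 to 34.2), and only 4 lay between convergent ORFs (1.00%, 0.273 to 2.54). The nearest start codon was at a median of 222 bp from the peak edge (quartiles 67 and 420.5). It lay within 100 bp for 119 peaks (29.8%) and over 1000 bp away for 29 peaks (7.25%). The peak was downstream of the nearest start in 210 cases, at a median of 73 bp, and upstream of it in 190 cases, at a median of 290 bp.

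**Figure D1:**
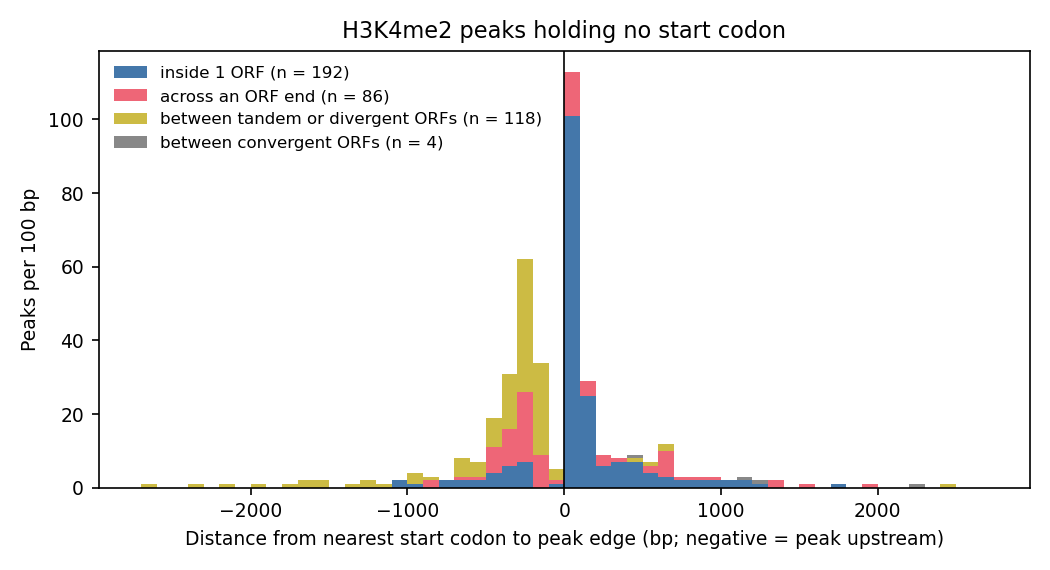
Distance in bp from the nearest start codon to the nearer edge of each of the 400 H3K4me2 peaks without a start codon, in steps of 100 bp, coloured by place. Peaks inside ORFs pile up just after a start, whereas the 190 peaks upstream of their nearest start, in any kind of place, lay at a median of 290 bp. Of the 86 peaks across an ORF end, 50 lay upstream and 36 downstream of the nearest start.

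These peaks were narrower and had lower scores than those over starts. A short interval is less likely to span a start codon, so the rule itself favours narrow peaks, and the widths describe the set and support nothing. The median width was 352.5 bp (quartiles 242 and 551.5), against 697 bp (615 and 807) for peaks that held a start. It was 672.5 bp for the 28 peaks in the upper 50% of the list by score and 582.5 bp for those over 400 bp wide. Their median score percentile was 8.29 (3.41 and 17.4) against 54.0 (30.7 and 77.1). In the lowest 20% of the list by score stood 311 of the 400 (77.8%, 73.4 to 81.7) and 567 of the 3993 (14.2%, 13.1 to 15.3). In the upper 50% stood 28 (7%, 4.70 to 9.96) and 2169 (54.3%, 52.8 to 55.9). Together the 400 peaks covered 160 kb and the others 2960 kb. The authors' cluster 1 held 18 of the 400 (4.50%, 2.69 to 7.02) and 811 of the start-holding peaks (20.3%, 19.1 to 21.6). Among the peaks without a start codon that lay at least 500 bp from any set1delta peak, its share was 2.92%, and among the 28 in the upper 50% of the list by score it was 17.9%. The meaning of the cluster numbers is unstated.

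**Figure D2:**
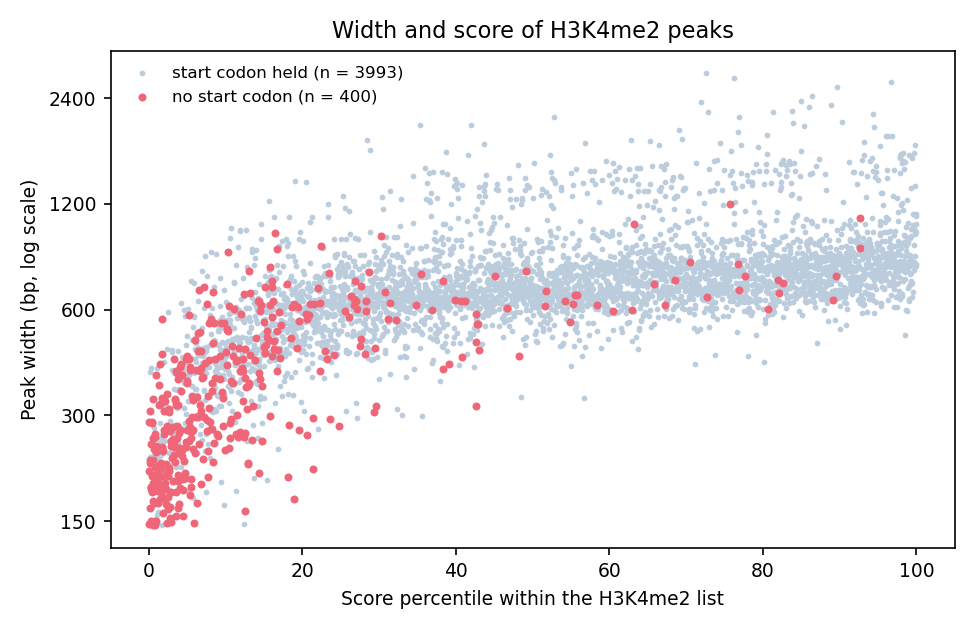
Width (bp, log scale) against score percentile for every listed H3K4me2 peak, 1 point per peak. Peaks without a start codon crowd the corner of low score and small width, and 28 of them reach the upper 50% of the list.

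The closest to a start without holding it were at UIP3 (2 bp, width 618 bp, percentile 58.4), TFB5 (3 bp, 236 bp, percentile 0.888) and ERG28 (3 bp, 169 bp, percentile 1.23), all beginning just downstream. The start-holding peaks with the smallest margin were at FMP16 and MRP35, where the start codon was the outermost base of the peak, and at APT2, where it lay 1 bp inside. Their widths were 397, 480 and 433 bp, at percentiles 12, 43.4 and 9.79. The TFB5 and ERG28 peaks were thus narrower and lower than these 3, and the UIP3 peak wider and higher. A start codon lay within 20 bp of the edge of 40 peaks in the set, and 89 start-holding peaks held theirs by at most 20 bp.

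Most peaks inside an ORF lay closest to the start codon of that same ORF. Among the 192 peaks inside an ORF, 161 had it as the nearest one (83.9%, 77.9 to 88.8). In 147 of these 161 the start was under no other H3K4me2 peak. No 2 listed H3K4me2 peaks lay closer than 50 bp, so a start nearer than that to a peak could not lie under another. For such peaks the bare start follows from the spacing of the list. For those 147 peaks the median distance from the start codon to the first base of the peak was 49 bp (quartiles 21 and 117.5), within 100 bp in 102 and within 500 bp in 139. By position along the ORF, 81 of the 192 peaks had their centre in the first 25% of its length, 52 between 25 and 50%, 29 between 50 and 75%, and 30 in the last 25%. The ORFs, counted once per peak, had a median length of 1362 bp, against 1200 bp for all 6002 nuclear protein-coding genes.

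Most of the highest peaks without a start codon began early in an ORF. PRT1, a subunit of translation initiation factor eIF3, led with a peak of 897 bp (chromosome XV, 1016694 to 1017590 in sacCer3) that began 62 bp after the start codon, at percentile 92.7, and H3K4me3 peaks covered 100% of it. BMT6, a methyltransferase of 25S rRNA, followed with a peak of 1096 bp (chromosome XII, 264180 to 265275), which began 23 bp after the start and ran to just past the stop codon, at percentile 92.6. Then came ISC1, a sphingolipid phospholipase, at percentile 89.6, RSE1, a splicing factor of the U2 snRNP, at 89.1, and MET7, folylpolyglutamate synthetase, at 82.6, with starts of the peak 22, 77 and 119 bp into the ORF. MAK11, of 60S ribosome assembly, CDC16, of the anaphase-promoting complex, RIC1, of Golgi transport, and MAD1, of the spindle checkpoint, stood at percentiles 82.2, 82.0, 80.6 and 77.7, with peaks beginning 107, 62, 40 and 11 bp in. None of these 9 start codons lay under another H3K4me2 peak, and all 9 peaks overlapped H3K4me3. At BMT6, ISC1, RIC1 and MAD1 no other listed peak could hold the start, since no 2 listed peaks lay closer than 50 bp. Overlap with H3K4me3 is not particular to these genes, as 97.6% of the peaks without a start codon above percentile 40 had it. The widest peak of the set lay at GPD2, a glycerol-3-phosphate dehydrogenase, with 1203 bp (chromosome XV, 217164 to 218366) beginning 38 bp after the start. PCT1, of phosphatidylcholine synthesis, had 974 bp beginning 18 bp in, and YGR079W had 1050 bp beginning 33 bp in.

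H3K4me3 accompanied fewer of these peaks than of the start-holding ones, and in both sets the share was lowest at low scores. An H3K4me3 peak overlapped 148 of the 400 by at least 1 bp (37.0%, 32.3 to 41.9), where the share over all 4393 listed H3K4me2 peaks was 85.6%. Start-holding peaks gave 3614 of 3993 (90.5%, 89.6 to 91.4). Within classes of equal score the shares lay close together except between percentiles 10 and 20. Up to percentile 5 they were 2.16% of 139 peaks without and 2.50% of 80 peaks with a start codon, and from 5 to 10 they were 11.4% of 79 and 11.3% of 141. Between percentiles 10 and 20 they were 52.7% (42.1 to 63.1) of 93 and 64.7% (59.5 to 69.8) of 346, the widest distance of the 5 classes. These 2 intervals overlap, which does not exclude a difference, and none was tested. From 20 to 40 they were 97.9% of 48 and 98.4% of 831, and above 40 they were 97.6% of 41 and 98.4% of 2595. In classes of equal width the shares were lower without a start codon in all 3. Up to 300 bp they were 10.1% (5.97 to 15.6) of 169 and 20.7% (12.6 to 31.1) of 82, from 301 to 600 bp 43.5% (35.5 to 51.7) of 154 and 71.6% (68.3 to 74.7) of 798, and above 600 bp 83.1% (72.9 to 90.7) of 77 and 97.2% (96.6 to 97.8) of 3113. The median score percentile was also lower without a start codon in each width class, 11 against 21.8 in the middle one.

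**Figure D3:**
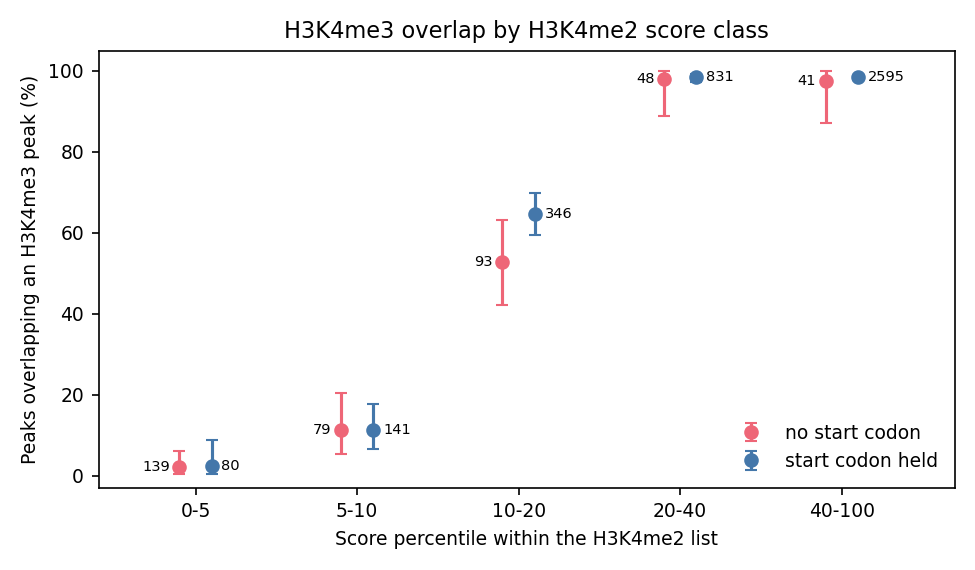
Share of H3K4me2 peaks that overlap an H3K4me3 peak, in 5 classes of H3K4me2 score percentile, for peaks without and with a start codon. Points are shares, bars exact 95% intervals over peaks, and small numbers the peaks in each class; the share climbs from 2.16% to 97.6% without and from 2.50% to 98.4% with a start codon.

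Where both marks were listed, the H3K4me3 peak mostly lay within the H3K4me2 peak. It lay wholly inside in 128 of the 148 cases (86.5%, 79.9 to 91.5), and there the rule leaves it no start codon to hold. In all, 146 of the 148 overlapped only H3K4me3 peaks without a start codon, a count that the rule thus largely fixes. H3K4me3 covered a median of 73.0% of the H3K4me2 peak (quartiles 56.7 and 84.0). The median width was 576.5 bp with H3K4me3 and 269.5 bp without, and the median percentile 23.3 and 4.4. Peaks across an ORF end overlapped H3K4me3 in 46 of 86 cases (53.5%, 42.4 to 64.3), those between tandem or divergent ORFs in 42 of 118 (35.6%, 27.0 to 44.9) and those inside an ORF in 58 of 192 (30.2%, 23.8 to 37.2). Inside ORFs, peaks centred past the midpoint did so in 11 of 59 cases (18.6%, 9.69 to 30.9).

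Highest by score among the 252 peaks with no H3K4me3 was that of SPL2, a regulator of phosphate transport, at percentile 48.3. The SPL2 peak (chromosome VIII, 374593 to 375036) began 64 bp after the start codon and ran past the stop codon of this short ORF. It overlapped an H3K4me3-antibody peak of set1delta cells, and by its name the H3K4me3 list of wild-type cells was cleared of set1delta peaks, so H3K4me3 there cannot be read from the lists. The next were upstream of PLB3, a phospholipase B (551 bp away, percentile 21.4), upstream of HUA1 (216 bp, percentile 18.8), inside YOR365C (centre at 81.5% of the ORF, percentile 16) and upstream of GYP1, a GTPase activator of Golgi transport (321 bp, percentile 15.8).

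Peaks upstream of a start mostly faced a second H3K4me2 peak that held it. Over all 400 peaks the nearest start lay under another H3K4me2 peak in 162 cases (40.5%, 35.7 to 45.5). With H3K4me2 peaks within 200 bp of each other merged, the share was 19.0%, so that it rests on how neighbouring peaks were split. As listed, the share for peaks inside an ORF was 33 of 192 (17.2%, 12.1 to 23.3), for those between tandem or divergent ORFs 74 of 118 (62.7%, 53.3 to 71.4). Across an ORF end it was 43 of the 50 peaks with the nearest start ahead of them (86.0%, 73.3 to 94.2) and 9 of the 36 with the nearest start behind them (25%, 12.1 to 42.2). All 162 cases lay among the 281 peaks with no start codon within 100 bp (57.7% of these). The median distance to the nearest start was 75 bp inside ORFs and 281 bp between tandem or divergent ORFs. The shares thus depend on distance, and a difference between places apart from it was not tested. Counting the 134 peaks upstream of a start that lay under another peak, the gap to the next H3K4me2 peak had a median of 152 bp (quartiles 113.5 and 203.5). Where the nearest start was under another H3K4me2 peak, H3K4me3 was listed over it in 126 of 162 cases (77.8%). Where it was not, H3K4me3 was listed over it in 6 of 238 (2.52%, 0.931 to 5.41). These 238 include all 119 peaks with a start codon within 100 bp.

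Divergent gene pairs held 64 of the 118 peaks between ORFs, and tandem pairs 54. In divergent pairs the median distance to the nearest start was 222 bp and the median width 280.5 bp. Both flanking starts lay under other H3K4me2 peaks for 26 of these 64 peaks, 1 of the starts for 30, and neither for 8. In tandem pairs the median distance was 410 bp. ORC2, a subunit of the origin recognition complex, lay behind the second highest peak between ORFs (chromosome II, 362795 to 363612, 818 bp, percentile 70.5), which ended 281 bp before the start codon and 156 bp from the next H3K4me2 peak. MRN1, an RNA-binding protein, had the third (chromosome XVI, 197795 to 198522, percentile 68.6), only 7 bp upstream of its start codon, which no other peak held. The widest between ORFs was 990 bp long, 450 bp upstream of RRT13 (percentile 16.4).

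The highest peak between ORFs stood alone. It lay on chromosome XI from 650437 to 651120, 1960 bp upstream of NFT1, an ABC transporter gene near the chromosome end, and 7187 bp from the next H3K4me2 peak. It was 684 bp wide, at percentile 76.9, and H3K4me3 covered 93.3% of it. By the protein-coding starts of the gene table, the 5 peaks farthest from any start codon were at 2633 bp upstream of GLE2, a nucleoporin gene, 2440 bp downstream of the start of SIR1, a silencing factor, 2360 bp upstream of FLO1, a flocculin (the authors' deposited table gives YAR047C at 744 bp instead), 2227 bp from the start of YER134C between convergent ORFs, and 2124 bp upstream of FRE7, a metal reductase. The YER134C peak (612 bp, percentile 19.5), the highest between convergent ORFs, was followed by those beyond HIT1 (445 bp, percentile 13.2) and RRT15 (467 bp, percentile 11.7). Within 40 kb of a chromosome end lay 61 of the 400 peaks (15.3%, 11.9 to 19.2) and 188 of the start-holding peaks (4.71%, 4.07 to 5.41).

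Some of the peaks held the first base of an annotated RNA that encodes no protein, or of a pseudogene. The gene table lists such a feature under 8 of the 400 peaks, and in all 8 the peak held the first base of the feature in its direction of transcription. They were 3 antisense RNAs, the telomerase RNA TLC1, 2 small nucleolar RNAs (SNR62 and SNR36) and 2 pseudogenes. Of the 7 antisense RNAs in the table, 3 began under a peak of this set and 1 under a start-holding peak. None of the 275 nuclear tRNA genes and none of 20 other non-coding RNA genes with a strand in their name began under a peak of the set. Start-holding peaks covered the first base of 3 of those 20, of 2 small nucleolar RNA genes and of no pseudogene. By overlap of at least 1 bp rather than first base, antisense RNAs numbered 3 under the set and 2 under start-holding peaks. By its name the list was cleared of set1delta peaks, and 262 of the 275 tRNA genes and 61 of 76 small nucleolar RNA genes began under a set1delta H3K4me2 peak.

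The 3 antisense RNAs run against IME4, GAL10 and GAL4. IME4 encodes the mRNA methyltransferase needed for entry into meiosis, and its antisense RNA RME2 is known to block it in haploid cells. The RME2 peak (chromosome VII, 143468 to 144178, 711 bp) stood at percentile 65.8, spanned 58 bp before to 652 bp after the first base of the RNA, and was 89.0% covered by H3K4me3. It lay 630 bp upstream of the COX13 start, which another H3K4me2 peak held, and 487 bp from the next H3K4me2 peak. GAL10 encodes the galactose epimerase, which is silent in glucose, and an antisense RNA is known to start within its ORF and to run towards GAL1. The GAL10 peak (chromosome II, 276775 to 277192, 418 bp) stood at percentile 10.2, from 1160 to 1577 bp after the GAL10 start codon, and spanned 30 bp before to 387 bp after the first base of YNCB0008W. It had no H3K4me3, and the next H3K4me2 peak was 2979 bp away. GAL4 encodes the activator of the galactose genes. At the GAL4 stop codon the peak (chromosome XVI, 79527 to 80082, 556 bp) stood at percentile 19.6, spanned 35 bp before to 520 bp after the first base of YNCP0002W, and was 48.0% covered by H3K4me3. This peak lay 174 bp upstream of the GYP5 start, which another H3K4me2 peak held, and only 67 bp from the next H3K4me2 peak. Whether the IME4 and GAL4 peaks go with the antisense RNA or with the neighbouring gene was not tested. The start codons of all 3 ORFs were under no H3K4me2 peak and no H3K4me3 peak.

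TLC1, the RNA template of telomerase, began under a peak of 523 bp (chromosome II, 307569 to 308091, percentile 15.4) that reached 18 bp before and 504 bp after its first base, and H3K4me3 covered 40.5% of it. FLO8, a regulator of adhesion that is annotated as a pseudogene in this reference strain, carried a peak of 676 bp (chromosome V, 377178 to 377853, percentile 51.7) over its first base, 87.7% covered by H3K4me3. This is also the peak farthest from any start codon of the rule, since a pseudogene has none there. The other pseudogene, YOL153C, began under a peak of 366 bp at percentile 1.32 with no H3K4me3.

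Next, 7 gene lists were set beside all genes. A gene counted as touched when a peak without a start codon overlapped its ORF or the 500 bp upstream of it. Over all 6002 nuclear protein-coding genes 497 were touched, 8.28% of them. In 513 pairs of a touched gene and a peak, 235 peaks were upstream of the ORF, 133 were centred before its midpoint and 145 past the midpoint or across its end (28.3%). In 99 of those 145 pairs the start codon of the gene was under no H3K4me2 peak, and H3K4me3 was present in 57 of the 145. Some genes stand in more than 1 list. The 95% interval of the share touched contained the 8.28% of all genes in every list but that of loci with described non-coding transcription. All lists were chosen with earlier results of these data known, so that exception describes the list and cannot serve as a test of it.

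Loci with described non-coding transcription were touched in 9 of 30 cases (30.0%, 14.7 to 49.4), and 6 of their 10 pairs were past the midpoint (60%, against 28.3% over all genes). Beside IME4, GAL10 and GAL4 these were PHO5, the repressible acid phosphatase (808 to 988 bp into the ORF, percentile 3.51), NDT80, the meiotic activator (percentile 0.0455), and ARO10, a decarboxylase of amino acid breakdown, with a peak at 91.3% of its length. This late ARO10 peak stood at percentile 8.31 and lay 357 bp upstream of the YRA1 start. Peaks of set1delta cells with the H3K4me2 and H3K4me3 antibodies lay 278 and 357 bp from it. From the NDT80 peak they lay 427 and 420 bp away. The part of that background in both peaks was not tested. ARO10 also had a peak from 162 to 323 bp after its start (percentile 2.44). In 4 of the 6 pairs past the midpoint the gene's own start was under no H3K4me2 peak, all but those of PHO5 and ARO10. KCS1, DCI1 and GCY1 were touched upstream of the ORF by peaks at percentiles 0.785, 8.40 and 0.615. The KCS1 peak lay nearest to the KCS1 start (379 bp). The DCI1 peak lay nearest to the start of LAS17 (258 bp) and the GCY1 peak to that of RIO1 (264 bp). Another H3K4me2 peak held the starts of KCS1, LAS17 and RIO1.

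Genes of meiosis and sporulation, which haploid cells in rich medium keep off, were touched in 11 of 70 cases (15.7%, 8.11 to 26.4). In 9 of the 11 pairs the peak was past the midpoint or across the end (81.8%, against 28.3% over all genes), and in all 9 the gene's own start was under no H3K4me2 peak. The highest were at IME4 and at MER1, a meiotic splicing factor (431 to 851 bp of an ORF of 813 bp, percentile 39.2). SPO22, of the synaptonemal complex, had a peak from 2534 to 3099 bp (percentile 31.1), HFM1, a meiotic helicase, from 3461 to 3909 bp (percentile 28.1) and REC102, needed for recombination, from 501 to 996 bp (percentile 27.7). These 5 peaks overlapped H3K4me3. Those in MEK1, OSW2, SMK1 and NDT80 did not, and stood at percentile 5.74 or lower. In all 9 late pairs the start nearest to the peak was that of a neighbouring gene ahead of it. Another H3K4me2 peak held that start in all but the pairs of OSW2 and NDT80. AMA1 and RED1 were touched upstream.

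Glucose-repressed genes of carbon metabolism were touched in 6 of 38 cases (15.8%, 6.02 to 31.3). In all 6 pairs the peak lay past the midpoint or across the end (100%, against 28.3% over all genes). NDE2, an external NADH dehydrogenase of mitochondria, had the highest peak (1069 to 1685 bp of 1638 bp, percentile 67.2). ADH2, the alcohol dehydrogenase that consumes ethanol, had one from 661 to 1383 bp of 1047 bp (percentile 38.3). A set1delta H3K4me2 peak lay 44 bp from the ADH2 peak, and its part there was not tested; at the other 5 genes of the list it was at least 943 bp away. FBP1, fructose-1,6-bisphosphatase of gluconeogenesis, had one from 424 to 1048 bp of 1047 bp (percentile 31.5). ICL1 and MLS1, the enzymes of the glyoxylate cycle, had peaks from 1035 to 1671 bp of 1674 bp (percentile 14.2) and from 1037 to 1585 bp of 1665 bp (percentile 9.38). ACS1, an acetyl-CoA synthetase, had one at percentile 5.51. H3K4me3 overlapped 4 of the 6, all but those of MLS1 and ACS1. In 5 of the 6 genes the start codon was under no H3K4me2 peak, ICL1 being the exception.

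At these ORF ends the next gene was often the marked one. The NDE2 peak ended 341 bp before the start of SUB2, an mRNA export helicase, the ADH2 peak 329 bp before YME2, the FBP1 peak 190 bp before PSY3, the MLS1 peak 398 bp before DMA2 and the SPO22 peak 365 bp before SER33. All 5 of these neighbouring starts lay under an H3K4me2 peak. Over all genes, 44 of the 99 pairs with a peak late in the gene and a bare start of its own had the nearest start ahead of the peak, and in 35 of these 44 that start was under another H3K4me2 peak. In these lists, a peak of the touched gene and a peak of its neighbour cannot be told apart.

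**Figure D4:**
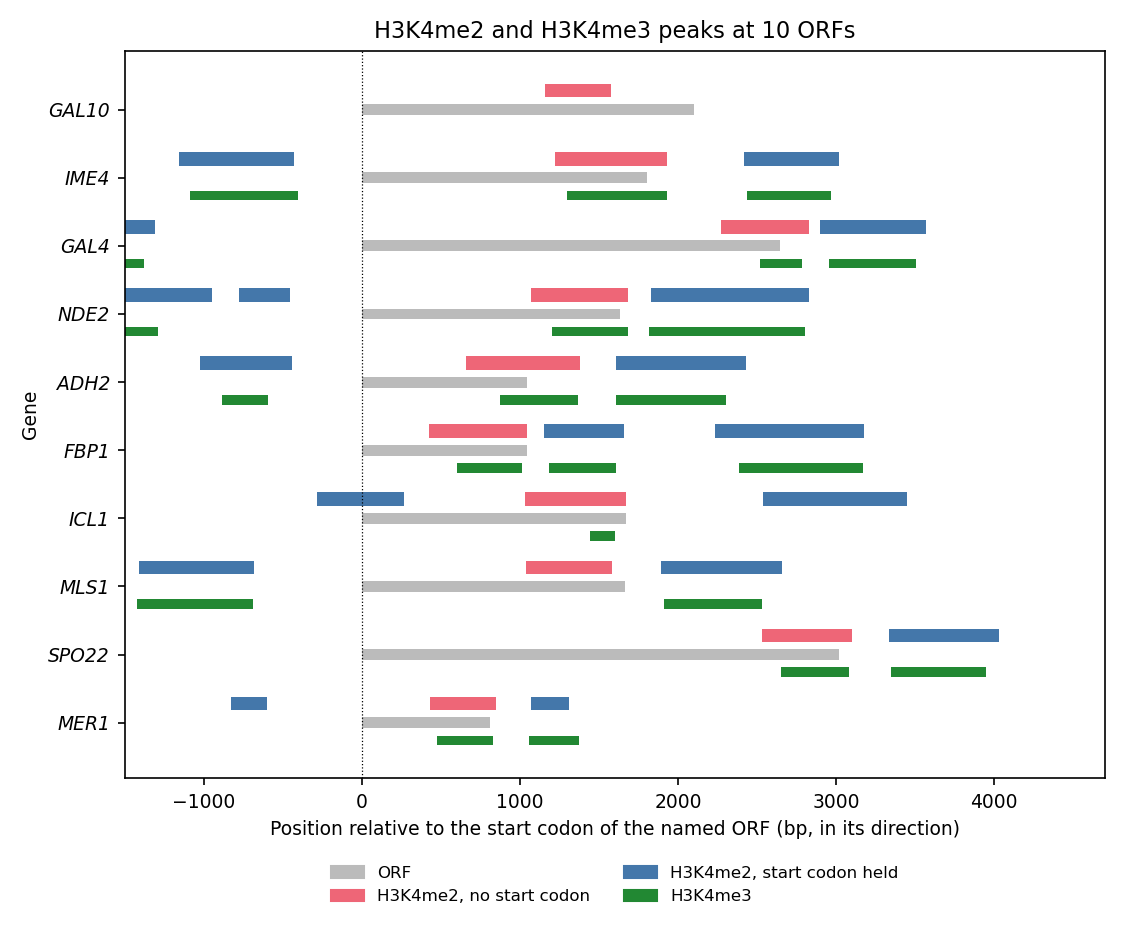
Listed peaks at 10 ORFs drawn to scale in bp from the start codon of the named ORF, in its direction of transcription. The peaks without a start codon (red) lie over the later part of each ORF, and in 9 of the 10 (all but ICL1) no H3K4me2 peak reaches the start codon at 0.

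Ribosomal protein genes were touched at the rate of all genes, 11 of 138 (7.97%, 4.05 to 13.8). In 7 of the 11 pairs the peak was past the midpoint or across the end (63.6%, against 28.3% over all genes). These were RPS11B, RPS17B, RPS18B, RPL8B, RPL15B, RPL20B and RPL21B, and all 7 peaks overlapped H3K4me3. RPL15B stood highest, at percentile 42.6 (331 to 649 bp of 615 bp). The class depends on ORF length, so that a peak from 309 to 601 bp in RPL8B, of 771 bp, also counts as past the midpoint. In 5 of the 7 the start codon also lay under an H3K4me2 peak. Positions are genomic, introns included. Peaks of set1delta cells with the H3K4me2 antibody lay as close as 28 bp (RPS18B) and 145 bp (RPL8B) to these peaks and as far as 24865 bp (RPL20B). The part of that background in these peaks was not tested. Most ribosomal protein genes of yeast have a paralog, and how reads shared by both copies were assigned is unstated, so these values are uncertain.

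Cell wall and adhesion genes were touched in 7 of 44 cases (15.9%, 6.64 to 30.1). Past the midpoint lay 1 of the 7 pairs (14.3%, against 28.3% over all genes). Another 4 were centred before it, where all genes gave 133 of 513: AGA1, the agglutinin anchor (from 35 bp), MNN1, a mannosyltransferase (from 75 bp), GSC2, a glucan synthase (from 145 bp), and CRH1, a chitin transglycosylase (from 33 bp). FKS3, related to glucan synthases, had its peak at 92.8% of the ORF. Genes of phosphate, nitrogen and metal starvation were touched in 6 of 42 cases (14.3%, 5.43 to 28.5), and 4 of the 6 pairs were past the midpoint or across the end (66.7%, against 28.3% over all genes). These were UGA1, of GABA breakdown (519 to 1293 bp, percentile 13.0), CTR3, a copper transporter (291 to 751 bp, percentile 16.9), SPL2 and PHO5. The start codons of UGA1 and PHO5 lay under an H3K4me2 peak, and those of CTR3 and SPL2 did not. The SPL2 peak began 64 bp after the start codon and counts as past the midpoint only since this ORF is 447 bp long. FTR1, the iron permease, was touched from 36 bp after its start. Mating genes were touched in 6 of 31 cases (19.4%, 7.45 to 37.5). Of the 6 pairs, 3 were upstream (SAG1, FAR1 and SST2) and 2 past the midpoint (33.3%, against 28.3% over all genes). KAR5, of nuclear fusion, was touched before the midpoint (113 to 757 bp, percentile 26.8).

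**Figure D5:**
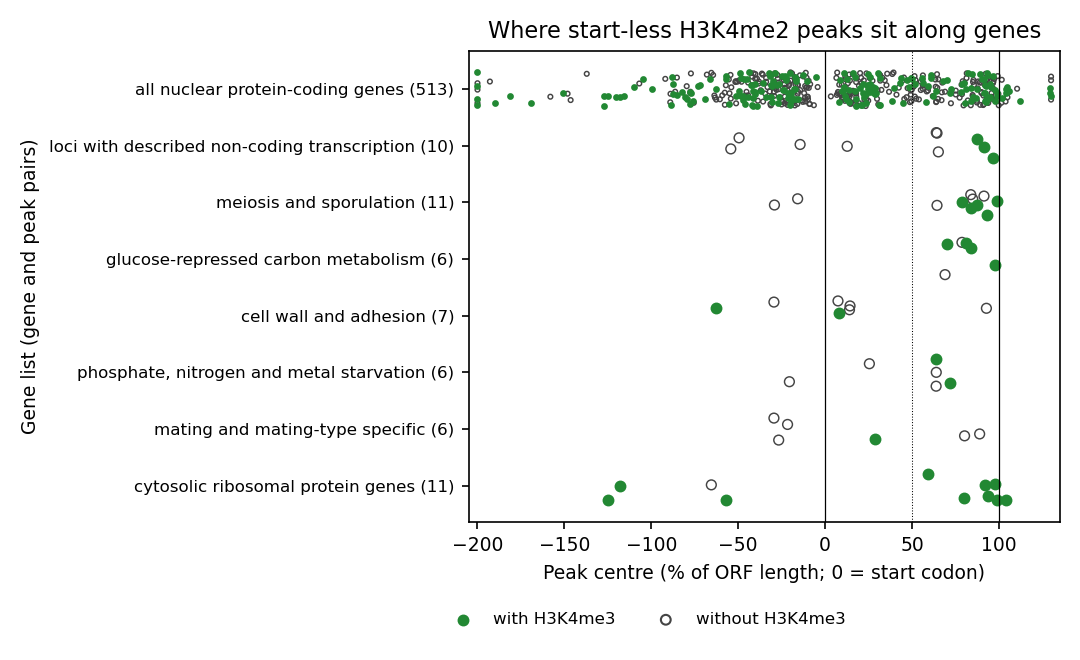
Centre of each H3K4me2 peak without a start codon along the gene it touches, in % of ORF length from the start codon (0) to the stop codon (100), for all genes and 7 lists; filled points overlap H3K4me3. In the row of all genes, 7 points below -200% and 4 above 130% are drawn at the edge; all 6 glucose-repressed and 9 of 11 meiotic points lie past the dotted midpoint.

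Marks of the antibody background lay near some of these peaks. Within 500 bp of a set1delta peak of either antibody lay 57 of the 400 (14.3%, 11 to 18.1) and 411 of the start-holding peaks (10.3%, 9.37 to 11.3). A skipped number in the running peak names stood next to 56 (14%) and 512 (12.8%), and whether the skipped numbers were set1delta peaks was not tested. A set1delta H3K4me3 peak overlapped 4 peaks of the set (1.00%, 0.273 to 2.54) and 55 start-holding peaks (1.38%, 1.04 to 1.79). The 4 were those at SPL2, at HXT3, a glucose transporter (6 bp after its start, percentile 4.05), at EGT2, a cell wall protein (51 bp after its start, percentile 0.501), and upstream of THI21 (456 bp, percentile 1.43). By chromosome, the share of H3K4me2 peaks without a start codon ran from 5.67% on chromosome II to 15.5% on chromosome V.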

How the data were processed

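Per the submitters' processing notes, Bowtie 1.1.2 and MACS2 2.1.1 were used on build sacCer3; order and settings are not given in the sources used here. For the 4 libraries used, the authors deposited a peak list each, with a score per peak of unstated scale, and, for H3K4me2 of wild-type cells, a width, a nearest gene with its distance, and a cluster number. Per their names, both wild-type lists had set1 deletion peaks taken out. Groups and replicate numbers came from sample titles. The deposited gene ontology tables were not used.

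ORFs came from the RefSeq gene table of assembly R64 (6477 genes, 6002 of them nuclear and protein-coding), with strand read from the systematic name. For 382 of the 400 peaks (95.5%) the deposited distance was within 2 bp of the distance computed from this table. Overlap means at least 1 bp. A peak between ORFs is divergent, tandem or convergent by its flanking genes. The peaks, the 7 gene lists (4 written members were not found) and all comparisons were chosen with earlier results of these data known. Named peaks are the 10 highest, the 5 widest, the 3 highest of each place, the 5 farthest from a start, the 5 highest without H3K4me3, the 3 on each side of the rule's edge, the peaks over non-coding genes (the 3 highest by rule, the rest added after their values were seen) and those in the gene lists (up to 5 per list by score, others added after their values were seen, as were the 4 over set1 deletion peaks). No genome sequence was used. Python 3.11.15, numpy 2.4.6, pandas 2.3.3, scipy 1.17.1 and matplotlib 3.10.9 were used. The interval code was tested on 640 simulated peaks, with 0 wrong calls, and compared with the overlaps bedtools 2.31.1 found for 12 list pairs, of which 0 differed.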

Additional observations from a re-analysis of the deposited data

How the results depend on the processing

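No paired analysis was possible because only the replicate 1 peak list of each group was analysed here, so no 2 lists of a group could be compared. Each library is single and of unknown depth, so how depth moves peak edges and the number of low peaks was not tested. Leaving out the peaks within 500 bp of a set1 deletion peak kept all 6 summary values within the intervals of the full set, although the share in cluster 1 fell from 4.50% to 2.92%.

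Over all settings, 15 alternative values stayed within the 95% intervals of the full set and 24 did not. Those that stayed include the H3K4me3 share with H3K4me3 peaks extended by 100 bp (38.3%) and the nearest-start share when another H3K4me2 peak within 100 bp of the start counted (42.5%). The 24 follow. In the upper 50% of the list by score, 1.27% of peaks held no start codon, 100% of these overlapped H3K4me3, 64.3% lay inside 1 ORF, 32.1% had their nearest start under another H3K4me2 peak, 17.9% were in cluster 1 and the median width was 672.5 bp (28 peaks). With H3K4me2 peaks within 200 bp merged, 6.81% held no start, and the H3K4me3, inside and nearest-start shares were 31.7%, 62.7% and 19.0%. Requiring no start codon within 100 bp left 6.40%, with 31.7% inside 1 ORF and 57.7% with the nearest start under another peak. Counting only genes with a standard name, both as starts and as ORFs, gave 13.4%. Of these peaks 50.7% overlapped H3K4me3, 28.2% lay inside 1 ORF and 54.6% had the nearest start under another peak, with a median width of 458 bp. Among peaks over 400 bp wide 4.36% held no start, 69.0% of these overlapped H3K4me3, 33.9% had the nearest start under another peak and the median width was 582.5 bp. An overlap of 50% of the peak gave 31.0% with H3K4me3, and 65.0% lay by at least 50% inside 1 ORF. Each of these settings changes which peaks are counted or what counts as overlap; no further cause was tested.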

Other observations

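The H3K4me3 list of wild-type Cps25 cells also held peaks with no start codon, 398 of 4087 (9.74%, 8.85 to 10.7). Of these, 148 overlapped an H3K4me2 peak without a start codon (37.2%, 32.4 to 42.1), 214 overlapped only H3K4me2 peaks that held a start (53.8%, 48.7 to 58.7), and 36 overlapped no listed H3K4me2 peak (9.05%, 6.42 to 12.3). The next H3K4me2 peak lay within 200 bp for 152 of the 400 H3K4me2 peaks without a start codon (38.0%, 33.2 to 43.0) and for 1165 of the 3993 with one (29.2%, 27.8 to 30.6), and over 1000 bp away for 124 (31.0%) and 1275 (31.9%).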
